A study of Mus musculus with 10 samples.

Results

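The cadherin superfamily genes described here are the protein-coding genes of the count table whose mouse symbols belong to the numbered cadherins (Cdh), the cadherin-related genes (Cdhr), the protocadherins (Pcdh), Fat1 to Fat4, Dchs1 and Dchs2, and the calsyntenins Clstn1 to Clstn3, apart from 3 genes that the rule leaves out. They number 103 of the 54532 genes in the table, and 95 of them had at least 10 counts in at least 5 libraries and were tested. Messenger RNA was measured by poly A sequencing in cochlear soft tissue (the cochlea is the hearing organ) of female mice on postnatal day 1. The control group had 5 animals with the genotype Esrrgfl/fl, in which both copies of Esrrg are flanked by loxP sites, and the other group had 5 animals with the genotype Esrrgfl/fl;Sox10-Cre, labelled cKO for conditional knockout. Both groups carried the floxed gene, so the genotypes differ by the Cre transgene, and a control with Cre alone was not analysed here. Sox10 regulatory sequence drives Cre in the otic epithelium, in glia and in other neural crest derivatives, so other cells of the cochlea may keep Esrrg. Left and right cochleae of the same mouse were pooled into 1 library, so each replicate is 1 animal.

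Cadherins are membrane proteins with repeated extracellular domains that bind calcium and hold cells together, usually by binding the same cadherin on the neighbouring cell. Type I and type II cadherins anchor to actin through catenins, T-cadherin (Cdh13) is held by a lipid anchor and has no cytoplasmic tail, and the clustered protocadherins give neurons combinations of surface proteins by which they tell their own branches from those of other cells. Fat and Dachsous proteins bind each other and orient cells within an epithelium, which in the cochlea includes the hair cells.

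Esrrg, the targeted gene, encodes the nuclear receptor ERR gamma. It had 2404, 1725, 2099, 2336 and 2414 counts in controls 1 to 5 and 3632, 3359, 3146, 2768 and 3477 counts in the libraries labelled cKO 1 to 5. Every library labelled cKO was above every control, which goes against the label (58.5 ± 6.64 against 89.7 ± 15.2 CPM, counts scaled to the same library total, SD, n = 5 each; log2 fold change 0.62, SE 0.118, edgeR adjusted p = 0.0292). A count over the whole gene does not separate transcripts with and without the floxed part, and the call was lost when single libraries were left out in 6 of 10 fits, with adjusted p up to 0.0998 without cKO 2. All directions below are those of the libraries labelled cKO against the controls and rest on those labels.

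The libraries held 33.5 to 41.8 M counts (M, mega) and 24160 to 26064 genes with a count. Markers of hair cells, supporting cells, neurons, glia, melanocytes, marginal cells, mesenchyme and endothelium were all present. Control 2 stood furthest apart: on the first principal component of the 500 most variable genes it scored -29.5, the other controls -4.23 to 6.82. The libraries labelled cKO scored -1.06 to 1.95, apart from cKO 5 at 17.3. Values without control 2 stand beside the results below that control 2 moved. Of all 18061 genes tested, 111 (0.615%) passed an edgeR adjusted p under 0.05, 13 (0.072%) higher and 98 (0.543%) lower in the libraries labelled cKO.

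Among the 95 members tested, 4 (4.21%, against 0.615% of all genes) passed that threshold. The set was chosen with Cdh13 already known to be higher in these data, so this share is only a description. Cdh13 and Cdh17 were higher and Cdhr1 and Cdh9 were lower in the libraries labelled cKO. At an unadjusted p under 0.05 there were 14 members (14.7%), against 9.43% of all genes tested. The values of the 2 groups did not overlap for 10 members (10.5%), against 2.79% of all genes. These were Cdh13, Cdh17, Cdh26, Cdh1 and Cdh18, with higher values in the libraries labelled cKO, and Cdhr1, Cdh9, Cdh20, Cdh22 and Cdh7, with lower values. DESeq2 called 8 members (8.42%, against 1.7% of all genes tested). Limma-voom with quality weights also called 8 (8.42%, against 2.44% of all genes tested). Each added Cdh20, Cdh22, Cdh26 and Cdh7 to the same 4. Over the 14 alternative fits Cdh13 passed in 14, Cdh17 in 12, and Cdhr1 and Cdh9 in 11 each. Without control 2 there were 7 members called (7.37%, against 1.08% of all genes tested).

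**Figure D1:**
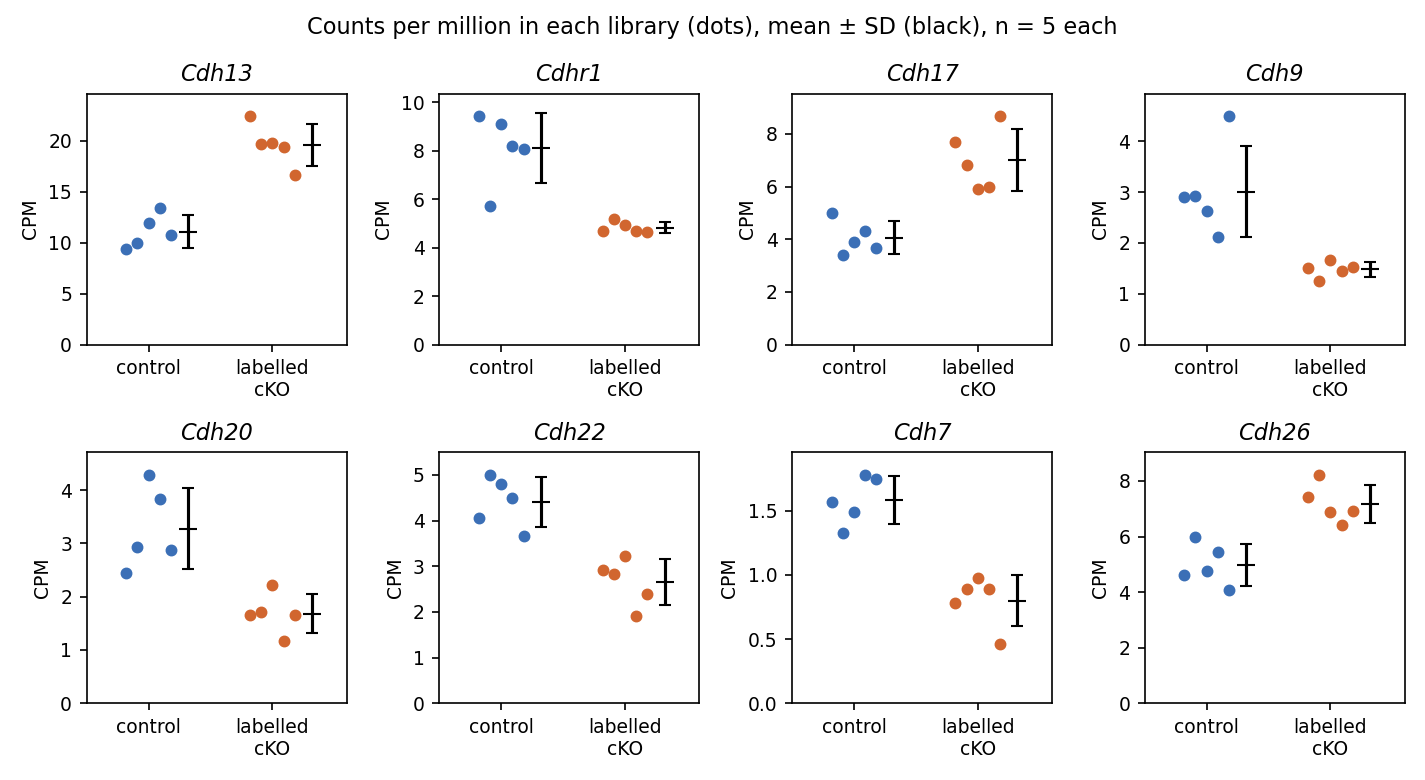
CPM (vertical axis, from 0) of 8 members in each library, with the mean and SD of each group in black. The groups do not overlap in any panel; Cdh13, Cdhr1, Cdh17 and Cdh9 passed the edgeR threshold and the lower 4 panels did not.

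The RefSeq sequence before the start of Cdhr1 and of Cdh9 (GRCm38.p6, 5′ to 3′ on the gene's strand) is shown because they are the members called lower. Capitals mark CG pairs, the sites of DNA methylation in mammals.
Cdhr1: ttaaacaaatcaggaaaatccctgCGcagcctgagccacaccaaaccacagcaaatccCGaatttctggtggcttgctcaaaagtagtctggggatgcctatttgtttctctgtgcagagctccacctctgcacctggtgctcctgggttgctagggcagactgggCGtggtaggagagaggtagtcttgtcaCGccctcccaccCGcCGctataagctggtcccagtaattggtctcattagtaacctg
Cdh9: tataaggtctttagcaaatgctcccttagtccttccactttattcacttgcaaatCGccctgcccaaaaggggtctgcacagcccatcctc
The Cdhr1 sequence covers chr14:37098348-37098597 on the minus strand, with 53.2% G and C and 6 CG pairs in 250 bases. The Cdh9 sequence covers chr15:16728665-16728755 on the plus strand and is 91 bases long, with 48.4% G and C and 1 CG pair.

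Estrogen-related receptors are known to bind the letters AAGGTCA. This motif was searched on both strands (also as TGACCTT) in windows of 300 bases around the start. It was found in 2 of 36 windows (5.56%) of the 32 member symbols with an entry and in 1550 of all 32851 windows (4.72%). The matches lay near Fat1 and Cdh18, and neither the Cdhr1 nor the Cdh9 stretch held one. The Cdh18 match lay 228 bases before a RefSeq start that lies inside the annotated gene (chr15:22549022-23474418). It is shown with its flanks, chr15:23036225-23036251 on the plus strand, and the motif in capitals.
Cdh18: gctttctgtgTGACCTTgtctatggga
Cdh18, a type II cadherin of the nervous system, measured 15.5 ± 0.775 CPM in the controls against 17.8 ± 1.34 CPM in the libraries labelled cKO (log2 fold change 0.20, SE 0.0872, edgeR adjusted p = 0.503). A match describes the letters only.

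Cdh13 had the highest log2 fold change of the 95 members tested. It was singled out beforehand as a gene higher in these data, so its rank and its call are descriptions and not independent support. Cdh13 (ENSMUSG00000031841, chr8:118283733-119324921, plus strand, GRCm38) encodes T-cadherin, known in vessels as a receptor for adiponectin. It measured 9.35, 9.97, 11.9, 13.4 and 10.8 CPM in controls 1 to 5 and 22.4, 19.7, 19.8, 19.4 and 16.6 CPM in the libraries labelled cKO 1 to 5. Every library labelled cKO was above the highest control. The means were 11.1 ± 1.6 and 19.6 ± 2.04 CPM (SD, n = 5 each), a 1.77-fold rise (log2 fold change 0.82, SE 0.117, edgeR adjusted p = 0.00367). The rise passed the threshold in all 10 fits that left out 1 library (log2 fold change 0.77 to 0.90, edgeR adjusted p 0.00247 to 0.0157) and in all 14 alternative fits.

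By level Cdh13 was a modest member. FPKM is a count per kilobase of a gene's merged exon length (11233 bases for Cdh13), scaled to library size, that allows genes to be compared. Cdh13 had an FPKM of 0.979 ± 0.143 in the controls and 1.74 ± 0.182 in those labelled cKO (SD, n = 5 each). It held rank 61 of the 103 members in the controls. Its coding sequence, 2142 bases, is shorter than those of all 18 type I and type II cadherins, which run from 2310 (Cdh19) to 2739 bases (Cdh4). Comparison of the proteins was not analysed here. The other members on chromosome 8 had smaller log2 fold changes: Fat1 0.28, Cdh1 0.28, Cdh8 0.27, Cdh5 0.20, Cdh11 0.15, Cdh3 0.15 and Cdh15 -0.19, none of which passed the test. Without control 2, Fat1 gave 0.09, Cdh5 0.13 and Cdh15 -0.12. Of 9 tested genes on the list of Cdh13 binding and signalling partners, 0 were called by edgeR, 6 had a log2 fold change above 0, and the median was 0.05 (0.03 without control 2).

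Cdh17, the liver-intestine cadherin (chr4:11758147-11817895), was the other member that rose. It measured 4.99, 3.39, 3.91, 4.33 and 3.67 CPM in the controls against 7.68, 6.84, 5.91, 5.97 and 8.67 CPM in the libraries labelled cKO. The groups did not overlap (4.06 ± 0.624 against 7.02 ± 1.18 CPM, log2 fold change 0.79, SE 0.151, edgeR adjusted p = 0.0292). The call was lost in 6 of 10 fits that left out 1 library, with adjusted p up to 0.108 without control 3. Cdh26, an epithelial cadherin (chr2:178430531-178487366), measured 4.08 to 6 CPM in the controls against 6.43 to 8.22 CPM in the libraries labelled cKO. It did not pass (log2 fold change 0.53, SE 0.132, edgeR adjusted p = 0.126), but did without control 2 (0.60, adjusted p = 0.0359). That was the 1 pass in 10 fits that left out 1 library, with edgeR adjusted p up to 0.311 without control 3.

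Cdhr1, the cadherin of photoreceptor outer segments (chr14:37077857-37098347, minus strand), fell. It measured 9.42, 5.72, 9.1, 8.21 and 8.09 CPM in controls 1 to 5 and 4.68, 5.18, 4.94, 4.69 and 4.66 CPM in the libraries labelled cKO. Control 2 was the lowest control and lay just above the highest library labelled cKO. The means were 8.11 ± 1.45 and 4.83 ± 0.226 CPM (log2 fold change -0.75, SE 0.138, edgeR adjusted p = 0.0243). Leaving out control 2 gave an adjusted p of 0.000823, and leaving out any other library lost the call, with adjusted p up to 0.0913 without control 3.

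Cdh9, a type II cadherin known from synapses of the hippocampus (chr15:16728756-16857094), was the lowest member by log2 fold change. It measured 2.9, 2.92, 2.63, 2.11 and 4.49 CPM in the controls against 1.5, 1.26, 1.67, 1.45 and 1.52 CPM in the libraries labelled cKO. All controls were above all libraries labelled cKO, and control 5 was the highest (3.01 ± 0.892 against 1.48 ± 0.148 CPM, log2 fold change -1.02, SE 0.203, edgeR adjusted p = 0.0346). The call was lost in 8 of 10 fits that left out 1 library, with adjusted p up to 0.112 without cKO 2. An antisense gene overlaps 6.33% of its exon bases, and reads of the 2 genes cannot be told apart without strand.

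Type II cadherins, many of them known from the nervous system, split in direction: 8 of 13 had a log2 fold change above 0 and 5 below, with a median of 0.05 (0.01 without control 2), and 1 (Cdh9) was called. Cdh20, Cdh22 and Cdh7 had negative fold changes with no overlap between groups but did not pass the edgeR test. Cdh20 (chr1:104768529-104995481) measured 2.44 to 4.29 CPM in the controls against 1.17 to 2.22 CPM in the libraries labelled cKO (log2 fold change -0.96, SE 0.206, adjusted p = 0.0582). Cdh7 (chr1:109982431-110140157) measured 1.33 to 1.78 CPM against 0.461 to 0.973 CPM (-0.98, SE 0.222, adjusted p = 0.078). Both passed without control 2, with edgeR adjusted p of 0.0359 and 0.0484. Over the 10 fits that left out 1 library, Cdh20 passed in 2 and Cdh7 in 1, with edgeR adjusted p up to 0.184 and 0.207. Cdh22 (chr2:165111507-165234853) measured 3.67 to 5 CPM against 1.91 to 3.22 CPM (-0.73, SE 0.164, adjusted p = 0.0759). Cdh19 (chr1:110888326-110977584), known from Schwann cell precursors, follows Cdh20 and Cdh7 on chromosome 1 among the members and measured 11 ± 1.03 against 8.61 ± 2.07 CPM (-0.35, SE 0.152, adjusted p = 0.491).

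Markers of nerve and brain were read beside the members with lower values. Of 16 spiral ganglion neuron markers, 12 had a log2 fold change below 0, and Elavl4 and Slc17a7 were among those called lower by edgeR; the median was -0.25, and their summed level overlapped between groups and ran from 1754 to 1898 CPM in the controls against from 1179 to 1960 CPM in the libraries labelled cKO. Of 7 tested brain markers, 6 were below 0 (median -1.54, and -1.32 without control 2) and 4 were called lower (Olig1, Olig2, Aqp4 and Cbln1). The brain list summed to 115 to 150 against 100 to 134 CPM. Most of that sum was Slc1a3, the marker above 0 (102 ± 14.8 against 110 ± 15.2 CPM), and Gabra6 was at 0 in every library. Of 12 Schwann cell and satellite glia markers, 10 were below 0 and 0 were called by edgeR (5 at an unadjusted p under 0.05), with sums of 1232 to 1389 against 917 to 1293 CPM. Their part in the lower Cdh9, Cdh20, Cdh22, Cdh7 and Cdhr1 was not tested. In bulk tissue, fewer cells of a type and less RNA per cell cannot be told apart.

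Epithelial and vascular markers were read beside Cdh13, Cdh17, Cdh26 and Cdh1. All 10 marginal cell markers and 10 of 11 general epithelial markers had a log2 fold change above 0 (medians 0.23 and 0.10, and 0.17 and 0.16 without control 2), with sums of 1056 to 1504 against 1440 to 1538 CPM and 442 to 634 against 569 to 601 CPM. Of 15 endothelial markers 10 were above 0 (median 0.03, and 0.06 without control 2), with sums of 665 to 802 against 743 to 782 CPM. In these 3 lists 0 markers were called by edgeR, and their part in the higher members was not tested. The medians of the other marker lists lay between -0.75 (erythroid, all 7 below 0; median -0.46 without control 2) and 0.16 (macrophages), and Spp1, on the cartilage and bone list, was called lower.

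**Figure D2:**
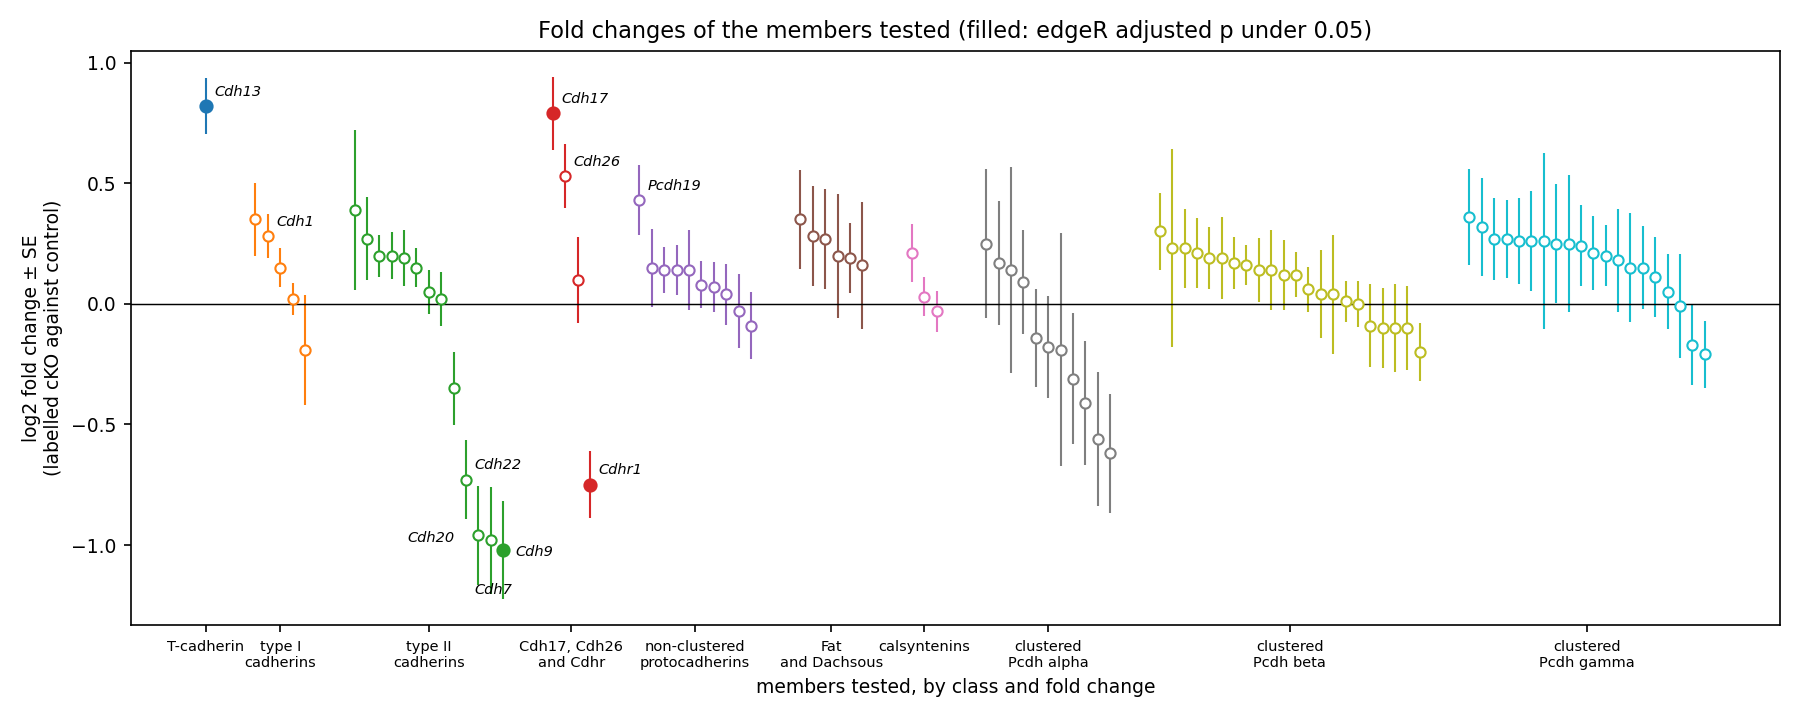
Log2 fold change of the libraries labelled cKO against the controls (vertical axis) with its SE for the 95 members tested, grouped by class and ordered by fold change. Filled points are the 4 members past the edgeR threshold; type II cadherins hold both positive values and a low tail from -0.35 to -1.02.

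The members with the highest levels were not among those called. In the controls the order by FPKM was Clstn1, a calsyntenin that links cargo vesicles to kinesin (137 ± 8.1), Cdh1, the E-cadherin of epithelia (80.2 ± 9.34), and Cdh11 of mesenchyme and bone-forming cells (60.9 ± 5.03, SD, n = 5 each). The control ranges of these 3 did not overlap. Cdh5, the VE-cadherin of endothelium (27.3 ± 4.07), and Fat1 (25.6 ± 8.46) overlapped and could not be ordered beyond their spread. Dchs1 (18.3 ± 4.22), Pcdh18 (15.4 ± 2.14) and Cdh2, the N-cadherin of nerve and muscle (13.9 ± 0.711), followed with overlapping ranges. At a mean control level of at least 1 FPKM there were 60 of the 103 members.

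Cdh1 measured 390, 318, 386, 421 and 336 CPM in the controls against 422, 487, 421, 441 and 484 CPM in the libraries labelled cKO. Before rounding the groups did not overlap, but the highest control and the lowest library labelled cKO both rounded to 421 CPM. The difference did not pass (370 ± 42.2 against 451 ± 32.5 CPM, log2 fold change 0.28, SE 0.0914, edgeR adjusted p = 0.298). Cdh2 differed by a log2 fold change of 0.02 (SE 0.067), Clstn1 by 0.03 (SE 0.08), Cdh11 by 0.15 (SE 0.0816) and Cdh5 by 0.20 (SE 0.0983), and none passed. Cdh4, the R-cadherin of retina and brain, measured 92.6 ± 22.2 against 118 ± 10.9 CPM (0.35, SE 0.151, adjusted p = 0.496), and 0.20 without control 2. Of the calsyntenins, which act at synapses, Clstn2 and Clstn3 gave 0.21 and -0.03, and 0.10 and -0.08 without control 2. Cdh2 and Clstn1 then gave -0.02 and 0.00.

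**Figure D3:**
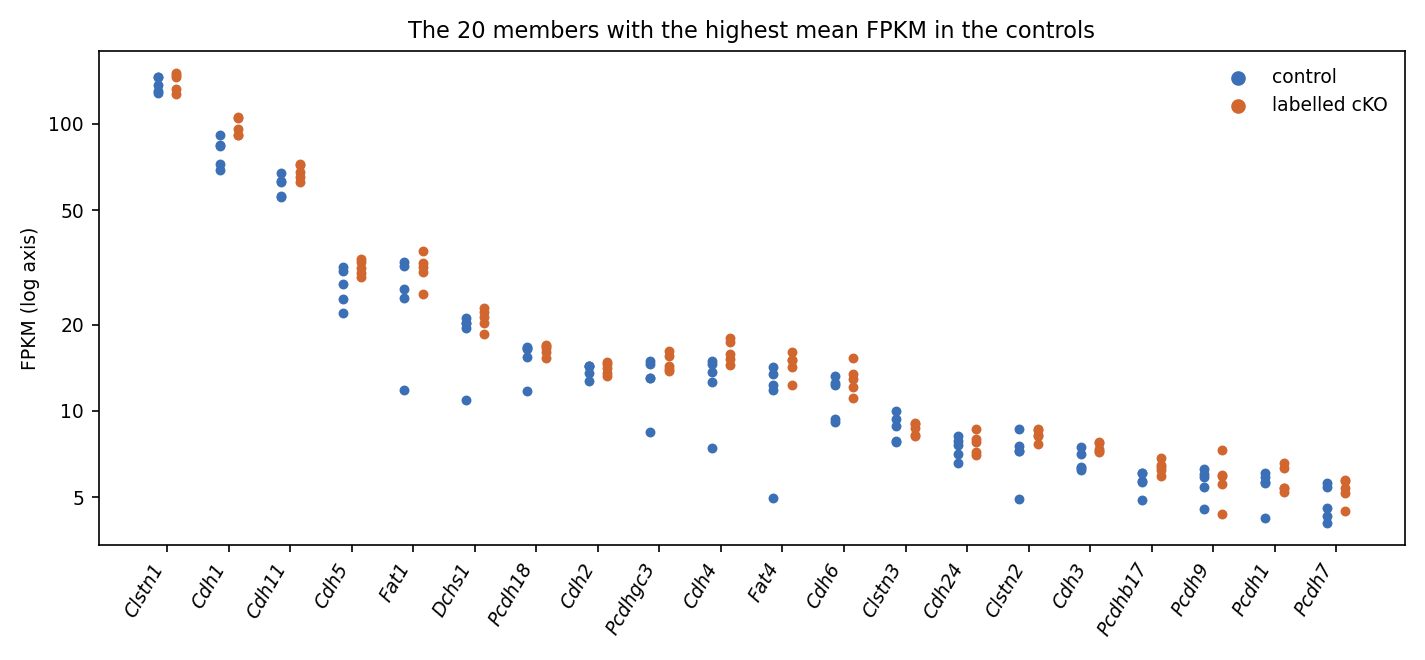
FPKM (log axis) of the members with the highest control means in each library, controls in blue and libraries labelled cKO in orange. Clstn1, Cdh1 and Cdh11 stand above the others, and the low control point of Fat1, Dchs1, Pcdh18, Pcdhgc3 and Fat4 is control 2.

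Across all members the balance of directions rested largely on control 2. With all libraries, 70 of 95 members (73.7%) had a log2 fold change above 0, against 47.7% of all genes tested, and the member median was 0.14 against -0.010 for all genes. Without control 2, 52 of 95 (54.7%) were above 0, against 48.4% of all genes, and the median was 0.016. In control 2 the median member lay 0.450 below its mean over the libraries on the log2 scale, 83 of 95 members were below their own mean, and it was the lowest control for 71. In the other 9 libraries the member medians ran from 0.002 to 0.127 above. The median of all genes was within 0.013 of 0 in every library.

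Longer genes were lower in control 2: across all genes its deviation correlated with log2 exon length at r = -0.351, against -0.0786 to 0.228 in the other libraries. Across members control 2 gave r = -0.286 (rho = -0.337). The other libraries gave r from -0.161 in control 1 to 0.331 in cKO 4 across members, so cKO 4 had the larger size with the opposite sign. Genes are not independent replicates, so these values only describe the libraries. A length offset left the member median at 0.129, and the part of length in the low values of control 2 was not tested further. The spread between controls shrank without it: the median coefficient of variation of the members was 20% over 5 controls, 10.3% over 4, and 11% over the libraries labelled cKO.

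**Figure D4:**
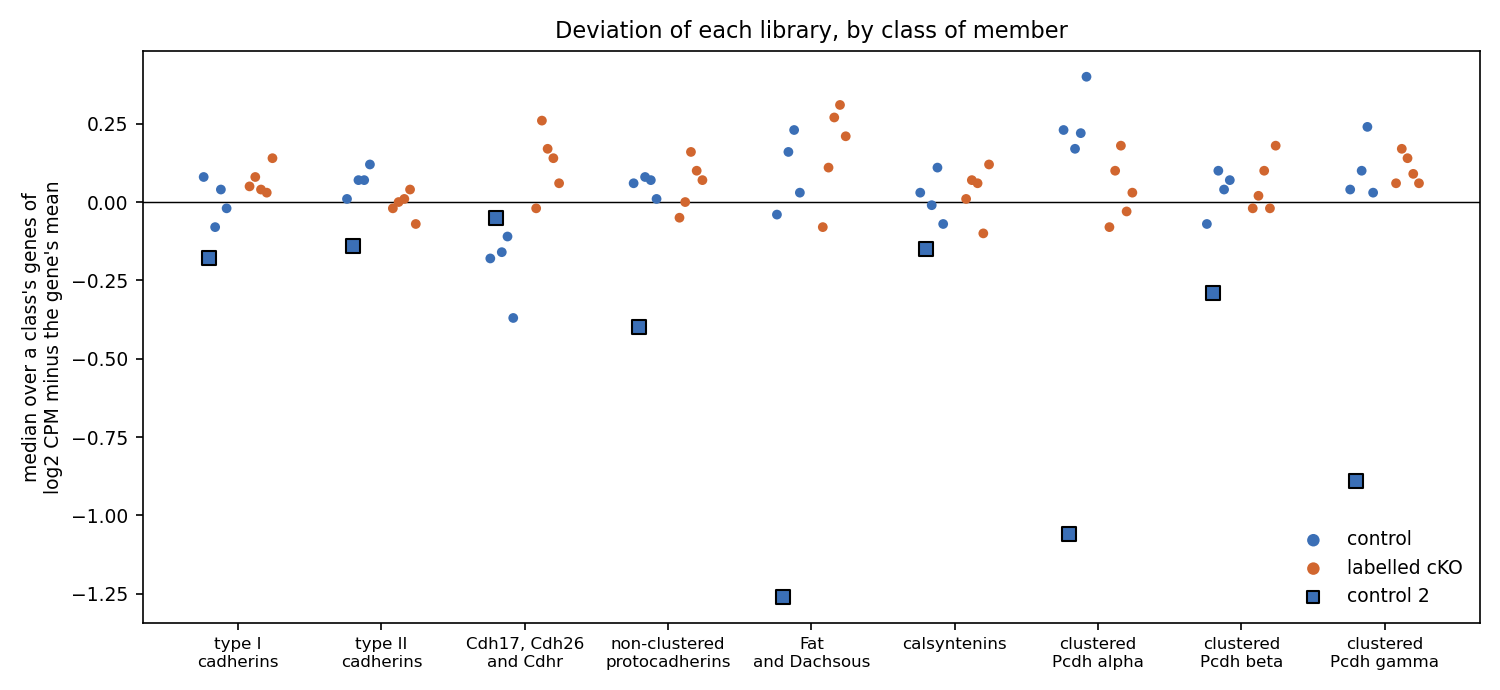
Median deviation of each class of member from its genes' means (log2 CPM, vertical axis) in each library, with control 2 as a square. Control 2 lies at -1.26 for Fat and Dachsous, -1.06 for the alpha cluster and -0.89 for the gamma cluster.

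The Fat and Dachsous genes showed this most. Fat4, a partner of Dchs1 in planar polarity, measured 205, 86.4, 233, 245 and 214 CPM in controls 1 to 5 and 213, 260, 260, 277 and 246 CPM in the libraries labelled cKO. Control 2 was far below the other controls, which overlapped the libraries labelled cKO (log2 fold change 0.35, SE 0.206, edgeR adjusted p = 0.626; 0.16 without control 2). Dchs1 measured 216, 121, 225, 233 and 227 CPM against 207, 225, 254, 246 and 236 CPM (0.19, SE 0.147; 0.05 without control 2). All 6 genes had a log2 fold change above 0 with all libraries, 4 of 6 without control 2, and the class median moved from 0.24 to 0.07. None was called by edgeR in either fit.

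The clustered protocadherins lie in 3 arrays on chromosome 18, named alpha, beta and gamma. Of 57 members there, 53 were tested and 0 were called by edgeR, with 1 at an unadjusted p under 0.05. Genes of the alpha and of the gamma array share constant exons, and how shared exons were counted is not given in the sources used here, so single genes of these arrays are uncertain. Of 20 gamma genes 17 were above 0 (median 0.23), and 13 without control 2 (median 0.06). Of 22 beta genes 17 were above 0 (median 0.12), and 13 without control 2 (median 0.03). Pcdhgc3, the most abundant clustered gene, measured 72, 46.7, 80.8, 82.4 and 72.8 CPM in the controls against 79.2, 89.4, 77.7, 85.2 and 76.4 CPM in the libraries labelled cKO. Only control 2 lay apart (log2 fold change 0.20, SE 0.127, edgeR adjusted p = 0.639; 0.08 without it).

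Of 11 tested alpha genes 4 were above 0 and 7 below (median -0.18), and 10 were below 0 without control 2 (median -0.24). They share constant exons, so these counts are not independent, and their difference from the other arrays was not tested. The summed alpha level was 28, 12, 25.7, 29 and 26.5 CPM in controls 1 to 5 and 23.6, 24, 24.8, 20.6 and 23.4 CPM in the libraries labelled cKO. The 4 other controls were above every library labelled cKO and control 2 was below all of them. Pcdha11 (ENSMUSG00000007440, a symbol that 2 gene IDs carry) had the lowest value of the array, a log2 fold change of -0.62 (SE 0.248, edgeR adjusted p = 0.45), followed by Pcdha1 at -0.56 (SE 0.277, adjusted p = 0.549). Neither passed the test.

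**Figure D5:**
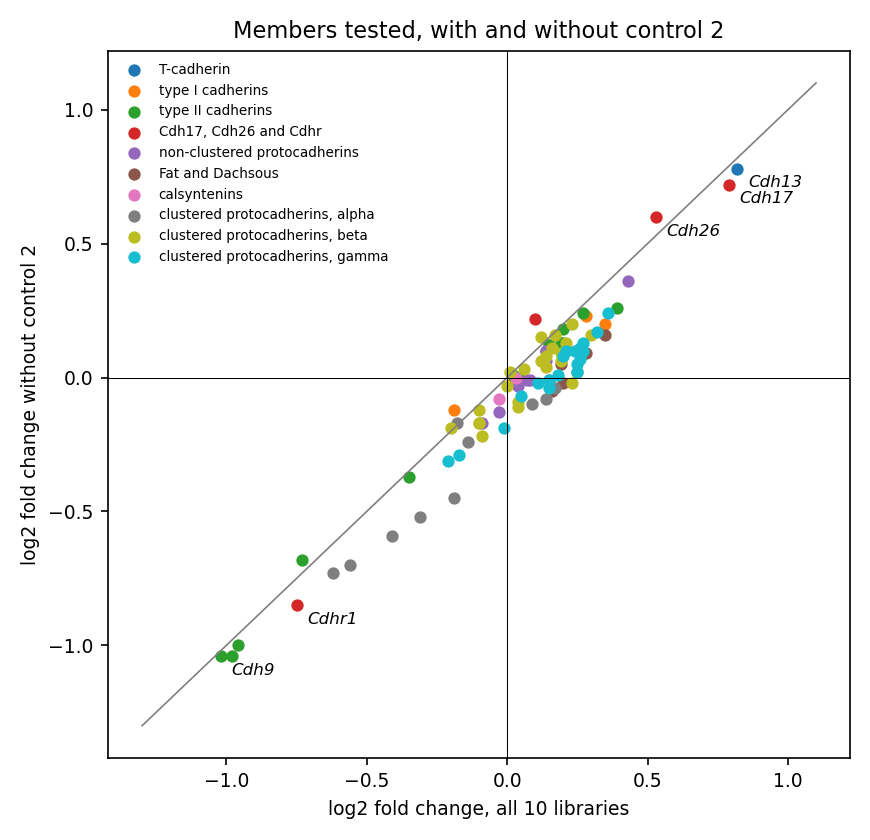
Log2 fold change of each member tested with all 10 libraries (horizontal axis) and without control 2 (vertical axis); the line marks equal values. Cdh13, Cdh17, Cdh26, Cdhr1 and Cdh9 lie near the line, while most members near 0 lie below it, and the median falls from 0.14 to 0.016.

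Of the 10 non-clustered protocadherins, 8 were above 0 (median 0.11), and 4 without control 2 (median -0.01). Pcdh19, an X-linked gene mutated in an epilepsy of females, measured 22.2 ± 4.3 against 29.9 ± 5.22 CPM (log2 fold change 0.43, SE 0.144, edgeR adjusted p = 0.324). The other 9 lay between -0.09 (Pcdh11x) and 0.15 (Pcdh17), with Pcdh18 at 0.08 (SE 0.0956). Without control 2, Pcdh11x gave -0.17, and Pcdh17 and Pcdh18 gave -0.01 each. None of the 10 passed the test. The 8 members that were not tested were Cdh16, Cdhr2, Cdhr3, Cdhr5, Pcdha4, Pcdha8, Pcdhga10 and the second Pcdha11 entry (ENSMUSG00000102206), with at most 18 counts in any library.

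Partners of the cadherins were read from 7 lists: catenins and other proteins at the cytoplasmic tail, desmosomal cadherins and plakins, planar polarity partners, nectins, proteases, regulators of the clustered protocadherins, and Cdh13 partners. Of 98 genes listed 87 were tested, 61 had a log2 fold change above 0 (median 0.05), or 51 without control 2 (median 0.03), and 1 (1.15%, against 0.615% of all genes) was called. It was Ppl, periplakin, a plakin of desmosomes. Ppl measured 11.8, 11.6, 13, 13.8 and 13.8 CPM in the controls against 5.88, 7.01, 8.88, 6.83 and 7.94 CPM in the libraries labelled cKO. The groups did not overlap (12.8 ± 1.06 against 7.31 ± 1.14 CPM, log2 fold change -0.81, SE 0.123, edgeR adjusted p = 0.00591), and the fall passed in all 10 fits that left out 1 library and in all 14 alternatives.

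No catenin passed the edgeR test: 15 of 21 genes at the cytoplasmic tail were above 0 (median 0.07, and 0.04 without control 2). Pkp4, an armadillo protein of junctions, measured 230 ± 21.9 against 286 ± 19.2 CPM (log2 fold change 0.31, SE 0.0837, adjusted p = 0.163), and Jup, plakoglobin, 102 ± 3.71 against 117 ± 5.35 CPM (0.20, SE 0.0642, adjusted p = 0.307). Fjx1, a Golgi kinase that modifies Fat and Dachsous, measured 85.2 ± 7.25 against 71.9 ± 5.32 CPM (-0.24, SE 0.0807, adjusted p = 0.317). Itgb3, an integrin subunit, measured 23.4 ± 3 against 18 ± 2.34 CPM (-0.38, SE 0.114, adjusted p = 0.246). The medians of the other lists were 0.22 for 7 tested desmosomal genes, 0.09 for 13 planar polarity genes, 0.06 for 5 nectins, 0.05 for 15 proteases and 0.01 for 17 regulators of the clustered protocadherins. Without control 2 they were 0.11, -0.04, 0.04, 0.08 and -0.05 in the same order, so the medians of the planar polarity genes and of the regulators changed sign.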

How the data were processed

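The authors deposited whole-number counts per Ensembl gene and FPKM values for the 10 libraries. STAR 2.5, HTSeq 0.61, DESeq2 and the build mm10 are named in the submitters' processing notes. Their roles, the annotation and the strand setting are not given in the sources used here. The deposited FPKM matched counts divided by the merged exon length of GENCODE M21 (GRCm38) within 0.1% for 95.3% of 13928 genes whose count was 50 or more throughout, so symbols, biotypes and positions, counted from 1, came from that annotation (54495 of 54532 IDs matched).

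Genes with at least 10 counts in at least 5 libraries were tested with edgeR 4.0.16 (R 4.3.3; TMM factors, robust quasi-likelihood F-test, genotype as the only term, all 10 libraries), with Benjamini-Hochberg adjustment over all 18061 genes. The test was checked on simulated counts. CPM used the TMM factors, and SE came from the F statistic. Library totals of 33.5 to 41.8 M counts set the counting precision. FPKM served only to compare levels between genes, and for limma 3.58.1 on log2(FPKM + 1) and log2(FPKM + 0.1).

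Named genes were Esrrg, Cdh13, called members, the 8 members with the smallest p in each direction, the 8 with the highest control FPKM, called pathway genes, and otherwise 2 pathway genes in each direction. Other genes named, such as Fat4, Pcdhgc3, marker genes and neighbours, were chosen after their values were seen. The members and lists were chosen with earlier results of these data known. Alternatives were DESeq2 size factors, upper-quartile factors, no filter, filterByExpr, at least 1 CPM in 5 libraries, DESeq2 1.42.0, limma-voom with quality weights, 1 surrogate variable (sva 3.50.0), a block for the replicate number, a fit that was not robust, a length offset with and without the block, the 2 FPKM fits, adjusted p thresholds of 0.1 and 0.01, and leaving out each library in turn.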

Additional observations from a re-analysis of the deposited data

Results flagged for a closer look

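Over 38 measures in each group of 5 libraries (76 groups examined), the gap of 1 library to its nearest neighbour exceeded 0.71 of the group's range 8 times; chance gives about 1 in 20, or 3.8. Of these, 6 concerned control 2. In control 2, Dchs1 measured 121 CPM (other controls 216 to 233) and Pcdh18 63.1 CPM (83.3 to 91.1). Also in control 2, the summed level was 12 CPM for the alpha protocadherins (25.7 to 29 in the other controls), 116 CPM for the gamma protocadherins (207 to 231) and 264 CPM for the non-clustered protocadherins (350 to 373). The median log2 deviation of the members was -0.45 in control 2. The other 2 were Pcdha11 (ENSMUSG00000007440) in cKO 3, at 0.499 CPM (0.945 to 1.12 in the other libraries labelled cKO), and Cdh19 in control 5, at 12.8 CPM (10.3 to 11).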

How the results depend on the processing

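Members called higher (2) were 3 with DESeq2, limma-voom, 1 surrogate variable and a length offset. They were 1 under the replicate block, limma on log2(FPKM + 0.1) and a threshold of 0.01, and 1 to 3 when single libraries were left out. Members called lower (2) were 5 with DESeq2, limma-voom and a threshold of 0.1, 4 with a length offset, 0 under the replicate block, both FPKM fits and a threshold of 0.01, and 0 to 4 when single libraries were left out. All genes called higher (13) were 54 with DESeq2, 67 with voom, 23 with 1 surrogate variable, 22 with a length offset (23 with the block), 24 and 7 at thresholds of 0.1 and 0.01, and 7 to 17 when single libraries were left out; those called lower (98) were 253, 374 and 183 with DESeq2, voom and 1 surrogate variable, 40 at 0.01, and 44 to 177. The member median (0.14) was 0.054 with voom, 0.024 with 1 surrogate variable, 0.086 on log2(FPKM + 1), and 0.016 to 0.177 when single libraries were left out. Esrrg (0.62) no longer passed under the replicate block (0.61), the offset with the block (0.58), log2(FPKM + 1) (0.57) and log2(FPKM + 0.1) (0.61), and ran from 0.54 to 0.70 when single libraries were left out. Near 0, Clstn1 turned to -0.03 with voom, Cdh2 to -0.03 with voom, the offset, and the offset with the block, and to -0.01 with 1 surrogate variable (-0.02 to 0.04 when single libraries were left out), and Pcdh18 to -0.01 without control 2 (-0.01 to 0.12). Whether the replicate numbers pair the samples was not tested. After each group's mean was removed, same-numbered libraries correlated at 0.0232 to 0.18, and 3 of 5 pairs were each other's best. Under the block 16 genes were called higher and 81 lower, and Cdh13 alone of the members. The cause of these changes was not tested. What depth limits was not tested; Cdh9 had 44 to 175 counts per library.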
